A study of Homo sapiens with 3 samples.

Results

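The 10 genes described here control the passage of a cell through G1 and into DNA synthesis: the D cyclins CCND1, CCND2 and CCND3, the E cyclins CCNE1 and CCNE2, the kinases CDK4 and CDK6, and the inhibitors CDKN1A, CDKN1B and CDKN2A. They were chosen by symbol from the 36601 genes of the count tables. The rule used no values, but earlier results of these data were known when it was set. All 10 symbols were found, 9 of the genes had unique molecular identifiers (UMIs, 1 for each captured RNA molecule) in every library, and 7 reached 10 UMIs per 1000000 UMIs of a library (CPM) in at least 1 library. The genes were followed in OVCAR3, a widely used line grown from human high-grade serous ovarian cancer (HGSOC), with extra copies of CCNE1. Cultures were treated for 48 hours with the solvent DMSO, with 50 µM of the RAC1 inhibitor NSC23766 (RAC1i), or with 50 µM NSC23766 and 5 µM of the EZH2 inhibitor GSK126 together (Combo). Both inhibitors were dissolved in DMSO, so all 3 cultures received it. Each condition was 1 culture of 1 line and 1 library, so no difference below has a replicate check, no test across samples could be made, and the intervals given cover counting error only. An EZH2i library was not analysed here, so the part of GSK126 in Combo was seen only on top of RAC1i.

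The 10 genes lie on 7 chromosomes of GRCh38 and all are annotated as protein coding by GENCODE 44. CCND1 spans chr11:69641156-69654474, CCND2 chr12:4269771-4305353, CDKN1B chr12:12685498-12722369, CCNE1 chr19:29811991-29824312 and CDKN1A chr6:36676460-36687337, all on the forward strand. On the reverse strand, CCND3 spans chr6:41934934-42050357, CDK4 chr12:57747727-57756013, CDK6 chr7:92604921-92836573, CDKN2A chr9:21967752-21995301 and CCNE2 chr8:94879770-94896678. Because 3′ ends were counted, the transcripts of p16INK4A and p14ARF share their UMIs and CDKN2A is given as their sum. The kit keeps the strand of the RNA, which separates CDKN1A from the antisense DINOL (1 UMI or fewer in each library) and CDKN1B from GPR19 (at most 118 UMIs).

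In G1, D cyclins bind and activate CDK4 and CDK6, and these kinases phosphorylate RB, which then releases E2F factors that switch on the genes for DNA synthesis. Cyclin E with CDK2 completes this step. CDKN2A encodes p16INK4A, which blocks CDK4 and CDK6, and, from another reading frame, p14ARF. CDKN1A (p21) and CDKN1B (p27, a target of FOXO factors that is also controlled by protein decay) are the Cip/Kip inhibitors, which block cyclin E with CDK2 and also help D cyclins to assemble with their kinases. RAC1 is a small GTPase that drives actin remodelling and signals to growth pathways that reach CCND1, and EZH2 is the methyltransferase of PRC2, which silences genes through H3K27 methylation.

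The 250 bases before the transcription start were taken from RefSeq for 7 of the 10 genes, as 11 windows on GRCh38.p14, since some genes have several starts. No window of CCND1, CCND2 or CCNE2 was taken. Of the inhibitors, CDKN1A and CDKN1B moved in opposite directions in the treated libraries, and their windows are shown for that reason, 5′ to 3′ on the forward strand, with GC boxes (GGGCGG or its reverse complement CCGCCC) and CCAAT boxes (CCAAT or ATTGG) in capitals. The CDKN1A window is chr6:36678464-36678713 and the CDKN1B window is chr12:12717118-12717367.
CDKN1A: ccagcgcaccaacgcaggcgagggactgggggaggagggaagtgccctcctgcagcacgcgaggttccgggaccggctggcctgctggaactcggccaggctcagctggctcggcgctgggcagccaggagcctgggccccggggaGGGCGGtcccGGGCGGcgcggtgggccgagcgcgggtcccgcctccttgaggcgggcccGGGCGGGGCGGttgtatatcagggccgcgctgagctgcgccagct
CDKN1B: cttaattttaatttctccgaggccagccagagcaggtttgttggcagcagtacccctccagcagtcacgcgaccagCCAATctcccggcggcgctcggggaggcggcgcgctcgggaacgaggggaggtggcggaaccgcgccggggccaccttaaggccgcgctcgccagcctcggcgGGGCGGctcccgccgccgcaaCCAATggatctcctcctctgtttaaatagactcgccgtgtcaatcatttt
The CDKN1A window held 4 GC boxes, a pair of which overlap, and no CCAAT box at 76.4% G and C. The CDKN1B window held 1 GC box and 2 CCAAT boxes at 64.4%. Of the 11 windows, 8 held a GC box, against 42.6% of all 35093 windows of the same length, and 3 held a CCAAT box, against 32.0%. None of the 11 held TATAAA (10.7% of all windows), the CRE TGACGTCA (1.65%), an AP-1 word (TGAGTCA or TGACTCA, in 1474 of the windows) or an E2F word (TTTCGCGC, TTTGGCGC, TTTCCCGC or TTTGCCGC, 2.79%), each sought on both strands. These letters describe the windows and no factor was measured on them.

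After the limits on cells, 7531 DMSO, 10215 RAC1i and 8239 Combo cells were used, with 199063947 to 234969742 UMIs per library. Median UMIs per cell were 26750, 20989 and 24953, and median mitochondrial shares were 5.60%, 1.66% and 1.58%, so the treated cells differed from DMSO in depth and in mitochondrial RNA as well as in treatment. Pairs of libraries shared 15 to 23 cell barcodes. All 12 markers of ovarian serous cells were detected, and 9 of them were over 1.5-fold lower in RAC1i, as were 36.9% of all genes, led by SOX17 (106 to 9.63 CPM) and PAX8 (355 to 54.3 CPM), while EPCAM stood at 320, 274 and 302 CPM. The 12 markers of blood, stromal, endothelial, erythroid and liver cells summed to 7.89 to 11.6 CPM per library, of which COL1A1 gave 5.51 to 5.69, and their part in the results was not tested.

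In all 3 libraries, CDKN2A, CCND1, CDK4 and CCNE1 were, in this order, the most abundant of the 10 genes, each at 79.5 CPM or more. CDK6, CDKN1B and CCND3 followed at 17.6 to 75.7 CPM, and CCNE2, CDKN1A and CCND2 stayed below 10 CPM. Within DMSO, the neighbours CDK6 and CDKN1B did not differ beyond their intervals. In both treated libraries CCND3 stood above CDKN1B and CDKN1A above CCNE2, whereas in DMSO both orders were the opposite. A UMI counts a captured molecule whatever the length of its transcript. How well the RNA of each gene was captured was not measured, so these orders are of counted UMIs.

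**Figure D1:**
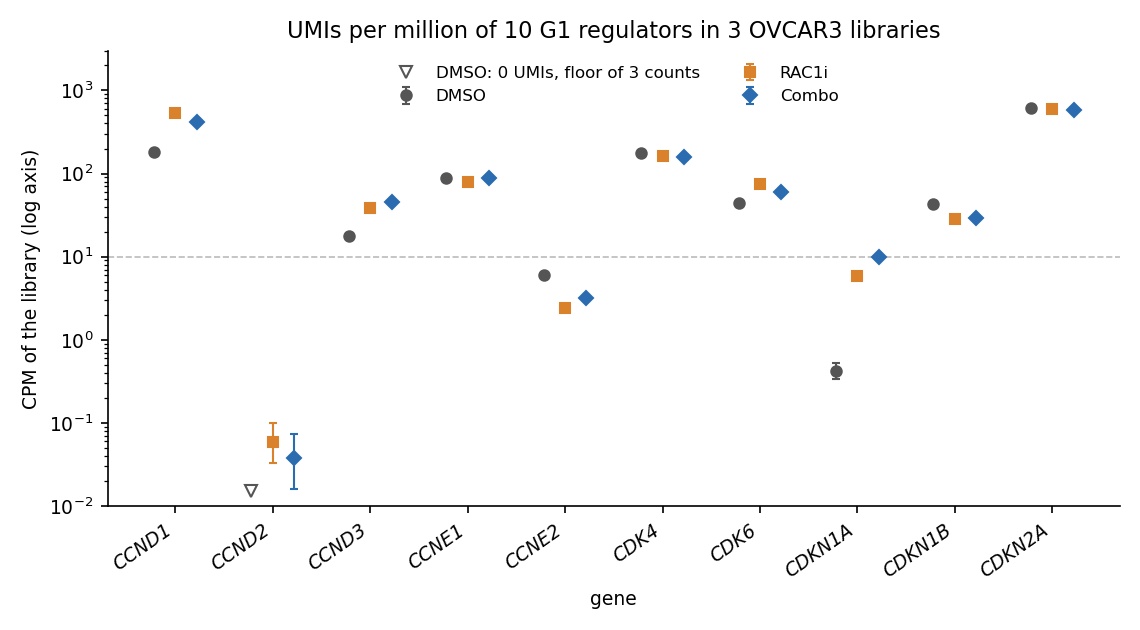
CPM of each of the 10 genes (log axis) in the DMSO, RAC1i and Combo libraries, 1 library each, with exact 95% Poisson intervals as bars and a dashed line at 10 CPM. CCND1, CCND3, CDK6 and CDKN1A sit higher in both treated libraries than in DMSO, CCNE2 and CDKN1B sit lower, and the open triangle marks the floor of 3 counts for CCND2 in DMSO, which had 0 UMIs.

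CCND1 and CCND3 rose and CCND2 stayed near 0 in both treated libraries. CCND1, the main D cyclin of most epithelial cells, stood at 183 CPM in DMSO (95% interval 181 to 185), 529 in RAC1i (527 to 532) and 419.7 in Combo (417 to 422). The RAC1i library was 2.89-fold above DMSO (2.86 to 2.93) and the Combo library 2.29-fold (2.27 to 2.32), and both comparisons share the DMSO library. CCND1 was thus highest in RAC1i, and Combo stood at 0.793 of it (0.786 to 0.7995), a difference larger than the counting error but below 1.5-fold.

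CCND3, the D cyclin best known from blood cells, was lower than CCND1 in every library. Its levels were 17.6 CPM in DMSO (17.0 to 18.2), 38.5 in RAC1i (37.7 to 39.3) and 44.9 in Combo (43.98 to 45.8). RAC1i over DMSO was 2.19-fold (2.10 to 2.28) and Combo over DMSO 2.55-fold (2.45 to 2.65). The order of the treated libraries was the opposite of that for CCND1, with Combo 1.17-fold above RAC1i (1.13 to 1.20). The gap from DMSO narrowed in shallow cells, where CCND3 stood at 19.8 CPM in DMSO cells under 10000 UMIs, 25.3 in such RAC1i cells and 25.5 in such Combo cells, which is within 1.5-fold, against 17.9, 41.4 and 47.7 in cells over 30000 UMIs. CCND2, the remaining D cyclin, had 0 UMIs in DMSO, 14 in RAC1i and 8 in Combo. It was at 0.0596 CPM in RAC1i and 0.0376 in Combo, and the exact intervals of the ratios to DMSO began at 2.81 and 1.60.

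The E cyclins did not move together. CCNE1, the amplified gene of this line, stood at 89.4 CPM in DMSO (88.1 to 90.7), 79.5 in RAC1i (78.3 to 80.6) and 89.3 in Combo (88.0 to 90.6). RAC1i over DMSO was 0.889 (0.871 to 0.908) and Combo over DMSO 0.999 (0.979 to 1.02), so neither treated library differed from DMSO by 1.5-fold, and the sign of the Combo ratio turned with the scaling (log2 0.09 with TMM scaling). CCNE2, its paralogue and an E2F target, had 1197, 563 and 678 UMIs, or 6.01, 2.40 and 3.19 CPM. It stood at 0.398 of DMSO in RAC1i (0.360 to 0.441) and at 0.530 in Combo (0.482 to 0.583), but below the level at which genes were counted. A mean over cells in place of summed UMIs brought the CCNE2 log2 ratios from -1.33 to -0.52 and from -0.92 to -0.11. Its fall was not seen in cells under 10000 UMIs, where it stood at 6.92 CPM in DMSO (5.31 to 8.87), 7.46 in RAC1i (6.03 to 9.13) and 10.9 in Combo (8.92 to 13.2), whereas in cells over 30000 UMIs it stood at 6.38, 1.87 and 2.78 CPM.

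Of the kinases, CDK6 rose in RAC1i and CDK4 stayed within 1.5-fold over all kept cells. CDK6 was at 43.8 CPM in DMSO (42.9 to 44.7), 75.7 in RAC1i (74.6 to 76.8) and 60.5 in Combo (59.5 to 61.6). RAC1i over DMSO was 1.73-fold (1.69 to 1.78), Combo over DMSO 1.38-fold (1.35 to 1.42) and Combo over RAC1i 0.799 (0.781 to 0.818), which is the same order of libraries as for CCND1. CDK4, the other partner of the D cyclins, stood at 176 CPM (174 to 178), 164 (162 to 165) and 160.3 (159 to 162). Its ratios to DMSO were 0.931 (0.918 to 0.945) in RAC1i and 0.912 (0.898 to 0.925) in Combo, and the first changed sign under DESeq2 size factors (log2 0.01). In cells under 10000 UMIs CDK4 was further apart, at 209 CPM in DMSO, 128 in RAC1i and 108 in Combo, and in cells over 30000 UMIs it stood at 177, 172 and 169.

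The 3 inhibitors differed in direction. CDKN1A was nearly silent in DMSO, with 84 UMIs in 7531 cells (0.422 CPM, 0.337 to 0.522). It had 1361 UMIs in RAC1i (5.79 CPM, 5.49 to 6.11) and 2091 in Combo (9.83 CPM, 9.41 to 10.3). The RAC1i library was 13.7-fold above DMSO (11.01 to 17.3), the Combo library 23.3-fold (18.7 to 29.3), and Combo 1.70-fold above RAC1i (1.58 to 1.82). These are the largest ratios of the 10 genes in each comparison for which a ratio could be formed. They rest on a gene under 10 CPM in the kept cells, and CDKN1A enters the counts below only where a choice of cells or scaling lifted it past 10 CPM.

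CDKN1B was at 43.2 CPM in DMSO (42.2 to 44.1), 28.2 in RAC1i (27.5 to 28.9) and 29.0 in Combo (28.3 to 29.7). It fell to 0.654 of DMSO in RAC1i (0.633 to 0.675), just past 1.5-fold, and stood at 0.672 in Combo (0.650 to 0.695), just short of it, although it passed it there with totals that left out mitochondrial genes (log2 -0.64). The treated libraries did not differ beyond counting error (Combo over RAC1i 1.03, 0.992 to 1.06). The RAC1i value is close to the limit and returned inside 1.5-fold under 8 alternatives, among them TMM scaling (log2 -0.53), cells of 10000 to 30000 UMIs (-0.36) and cells with 1 to 4% mitochondrial UMIs (-0.48). The direction turned with depth: in cells under 10000 UMIs CDKN1B was lower in DMSO, at 33.2 CPM (29.5 to 37.2), than in RAC1i, at 44.3 (40.7 to 48.1), with Combo at 39.9 (36.0 to 44.1), and in cells over 30000 UMIs the levels were 46.8, 26.3 and 27.8.

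CDKN2A, the inhibitor of CDK4 and CDK6 and the most abundant of the 10 genes, stood at 616 CPM (613 to 620), 599.9 (597 to 603) and 586 (582 to 589). The ratios to DMSO were 0.973 (0.966 to 0.981) in RAC1i and 0.950 (0.943 to 0.958) in Combo, and both turned above 1 with TMM scaling (log2 0.04 and 0.02). The level moved more with depth than with treatment. In DMSO it went from 878 CPM in cells under 10000 UMIs to 589 in cells over 30000, and in RAC1i from 736 to 545.

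Among the 7 genes with at least 10 CPM, 3 were over 1.5-fold higher in RAC1i than in DMSO (CCND1, CCND3 and CDK6), where 22.7% of the 8778 genes tested were, and 1 was lower (CDKN1B), where 36.9% were. In Combo over DMSO 2 were higher (CCND1 and CCND3), against 21.3% of 8745 genes, and 0 were lower, against 35.4%. In Combo over RAC1i none of the 7 passed 1.5-fold in either direction, while 0.175% of 7443 genes were higher and 0.484% lower. The medians of the 7 genes on the log2 scale were -0.04, -0.00 and -0.03 for the 3 comparisons, and those of all genes tested were -0.20, -0.18 and 0.01. CCND1 lay above 93.9% of the genes in RAC1i over DMSO and 91.1% in Combo over DMSO, CCND3 above 89.0% and 93.1%, and CDK6 above 82.6% and 74.97%. In Combo over RAC1i, CCND1 and CDK6 lay near the low end, with 4.51% and 4.97% of genes below them. DESeq2 size factors moved the all-gene medians of the comparisons with DMSO to -0.07 and -0.04.

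**Figure D2:**
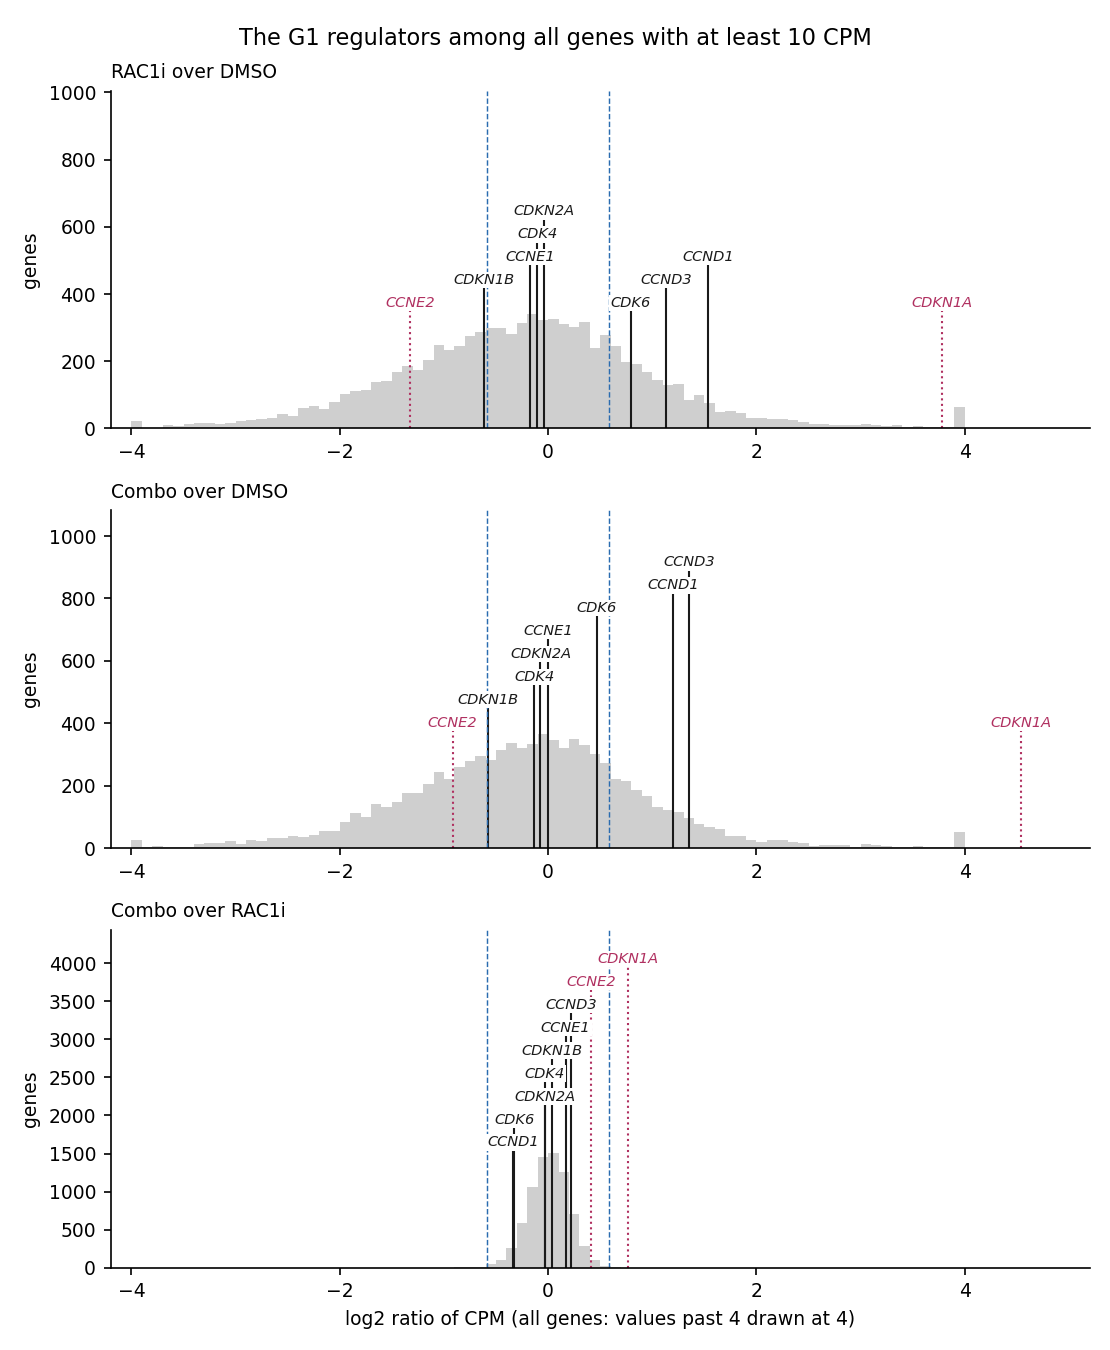
Histograms of the log2 ratio of CPM over all genes that reach 10 CPM in at least 1 of the libraries compared, for RAC1i over DMSO, Combo over DMSO and Combo over RAC1i, with vertical lines at the 9 genes that had UMIs in every library (dotted for those under 10 CPM) and dashed blue lines at 1.5-fold. CCND1 and CCND3 sit in the upper tail in both comparisons with DMSO, and in Combo over RAC1i only the dotted line of CDKN1A lies past 1.5-fold.

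Depth and mitochondrial share, which differed between the cultures along with treatment, were set beside these ratios. With 1 library per condition they cannot be told apart from treatment. The paper reported reduced oxidative phosphorylation with RAC1i. Choosing cells by mitochondrial share may thus select on an effect of treatment, which was not tested. Within cells of 1 to 4% mitochondrial UMIs (1386 of DMSO, 6166 of RAC1i and 4831 of Combo), the RAC1i over DMSO log2 ratio was 1.54 for CCND1, 1.03 for CCND3, 0.93 for CDK6 and 3.15 for CDKN1A, against 1.53, 1.13, 0.79 and 3.78 over all kept cells. Within cells of 10000 to 30000 UMIs it was 1.61, 1.13, 0.97 and 4.83. The last value rests on few DMSO UMIs of CDKN1A, 4 in cells of 10000 to 20000 UMIs and 9 in those of 20000 to 30000. The 4 genes were thus higher than in DMSO within both windows, which narrow the gaps in depth and in mitochondrial share but do not close them. The DMSO levels of 3 of them moved with depth. CDKN1A was at 0.199 CPM (0.0912 to 0.378) in DMSO cells of 20000 to 30000 UMIs and 0.522 (0.406 to 0.662) in those over 30000, CCND1 went from 108 CPM in DMSO cells under 10000 UMIs to 191 in those over 30000, and CDK6 from 24.7 to 47.0. The same bins spanned 522 to 543 CPM for CCND1 and 74.3 to 78.4 for CDK6 in RAC1i. In Combo CCND1 went the other way from DMSO, from 510 CPM in cells under 10000 UMIs to 404 in those over 30000, and CDK6 spanned 57.2 to 62.1.

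To compare cells, each was thinned at random to 5000 UMIs, which left 6725, 9200 and 7354 cells. Every culture was of 1 cell line, so there was no cell type that lacks these genes in which the share due to free RNA could be measured. A UMI of CCND1 was found in 48.5% of DMSO cells (exact interval 47.3 to 49.7), 87.6% of RAC1i cells (86.9 to 88.3) and 81.4% of Combo cells (80.5 to 82.3), or 77.7%, 96.2% and 94.999% before thinning. The CCND1 difference was spread over the range of cells rather than held by a few: cells with none of it went from 51.5% to 12.4% and 18.6%, and those with 4 or more UMIs from 4.07% to 28.7% and 20.8%. Positive cells held on average 1.78, 3.04 and 2.68 UMIs of it.

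CCND3 was found in 9.07% of DMSO cells (8.39 to 9.78), 16.0% of RAC1i cells (15.2 to 16.7) and 18.9% of Combo cells (18.0 to 19.8), and CDK6 in 16.6% (15.7 to 17.5), 27.8% (26.9 to 28.7) and 22.8% (21.9 to 23.8). CDKN1B went the other way, from 18.2% (17.3 to 19.2) to 13.6% (12.9 to 14.3) and 13.4% (12.6 to 14.2). CDKN1A was found in 13, 245 and 369 cells, or 0.193%, 2.66% and 5.02%, and before thinning in 0.969%, 10.1% and 17.2%. Even where it was highest, CDKN1A was thus seen in a minority of cells, and at this depth a cell with no UMI is not a cell without the transcript. CCND2 was found in 0 of 6725 DMSO cells, and in 2 RAC1i cells and 1 Combo cell. The exact interval for DMSO allows a share of up to 0.0548% of cells with a UMI at this depth, for counting error only.

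Of the remaining 4 genes, CCNE1 was found in 33.1% of DMSO cells (32.0 to 34.3), 30.0% of RAC1i cells (29.1 to 31.0) and 33.3% of Combo cells (32.2 to 34.4). CDK4 was found in 57.7%, 53.1% and 50.7%, CCNE2 in 2.83%, 1.24% and 1.73%, and CDKN2A in 93.3%, 92.7% and 92.8%.

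**Figure D3:**
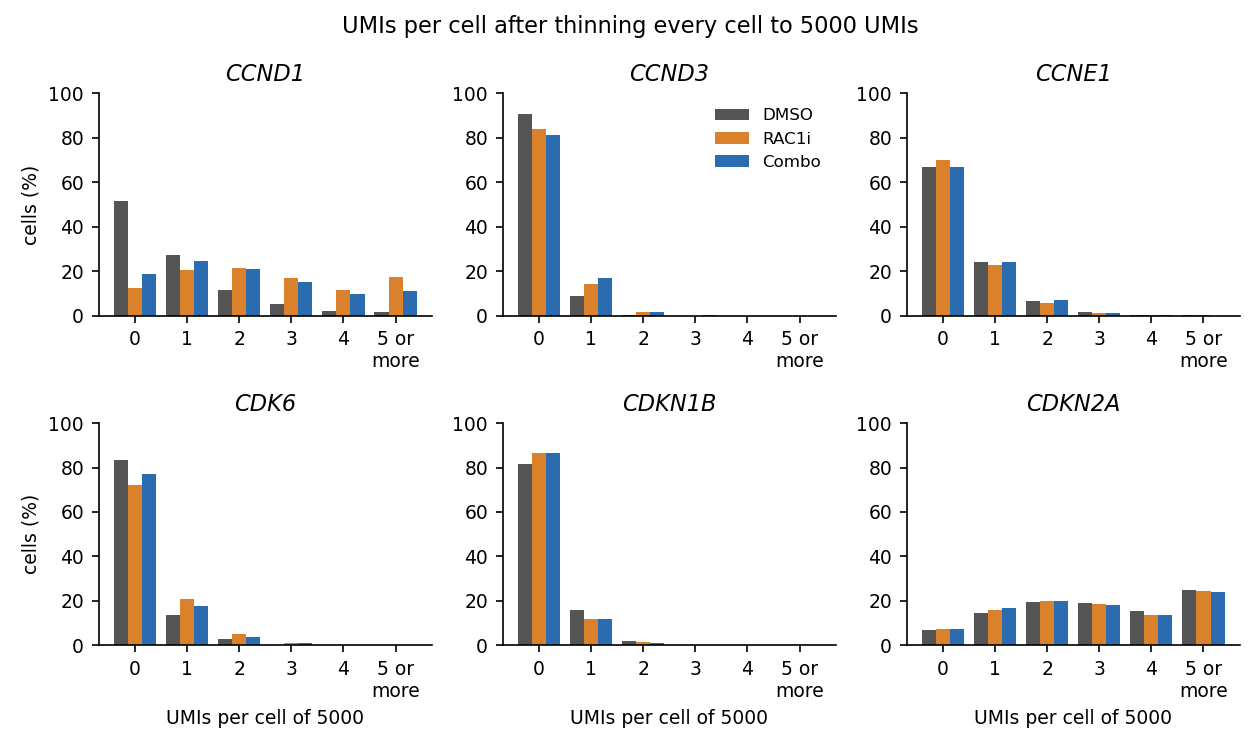
Percent of cells by their number of UMIs of CCND1, CCND3, CCNE1, CDK6, CDKN1B and CDKN2A after thinning each cell to 5000 UMIs, for the DMSO (6725 cells), RAC1i (9200) and Combo (7354) libraries. For CCND1 the bar at 0 UMIs is 51.5% of DMSO cells and 12.4% and 18.6% of treated cells, while the bars of CCNE1 and CDKN2A lie close together in all 3 libraries.

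When cells were classed by CCND1 and CCNE1 together, the class with neither cyclin was 35.3% of DMSO cells (34.2 to 36.5), 8.77% of RAC1i cells (8.20 to 9.37) and 12.3% of Combo cells (11.6 to 13.1). Cells with CCND1 and no CCNE1 went from 31.5% to 61.2% and 54.4%. Cells with CCNE1 and no CCND1 went from 16.2% to 3.63% and 6.26%, and cells with both from 17.0% to 26.4% and 27.01%. The 2 cyclins were found in the same cells about as often as their shares give, with 1.06 times the expected number in DMSO cells, 1.00 in RAC1i cells and 0.997 in Combo cells.

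Of the 45 pairs of the 10 genes, 26 had at least 20 expected cells in every library, and none of the 26 was found together in over 25% more cells than expected in all 3 libraries, although with another random seed of the thinning CCNE1 and CCNE2 were. The ratio cannot pass 1 divided by the larger share of a pair, so 13 of the 26 could not have passed that limit in every library. The ratios of the 26 ran from 0.884 to 1.48. The highest was that of the 2 E cyclins in DMSO, with 93 cells where 63.0 were expected, against 36 where 34.2 were expected in RAC1i and 53 where 42.2 were expected in Combo. CCND1 and its kinase CDK6 stood at 1.15, 1.036 and 1.038, and CDK6 was found in 19.0%, 28.8% and 23.7% of cells with a CCND1 UMI and in 14.3%, 20.7% and 19.0% of cells without one. CCND1 and CDK4 were at 0.999, 1.00 and 0.996. CCNE1 and CDKN1A stood at 1.11 in RAC1i (82 cells, 73.6 expected), within counting error, and at 1.26 in Combo (155 cells, 123 expected). CDKN1A and CDKN1B stood at 0.900 and 0.910, both within counting error. The highest ratio in a treated library was that of CCND3 and CDKN1A in RAC1i, at 1.36 (53 cells, 39.1 expected), against 0.948 in Combo.

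**Figure D4:**
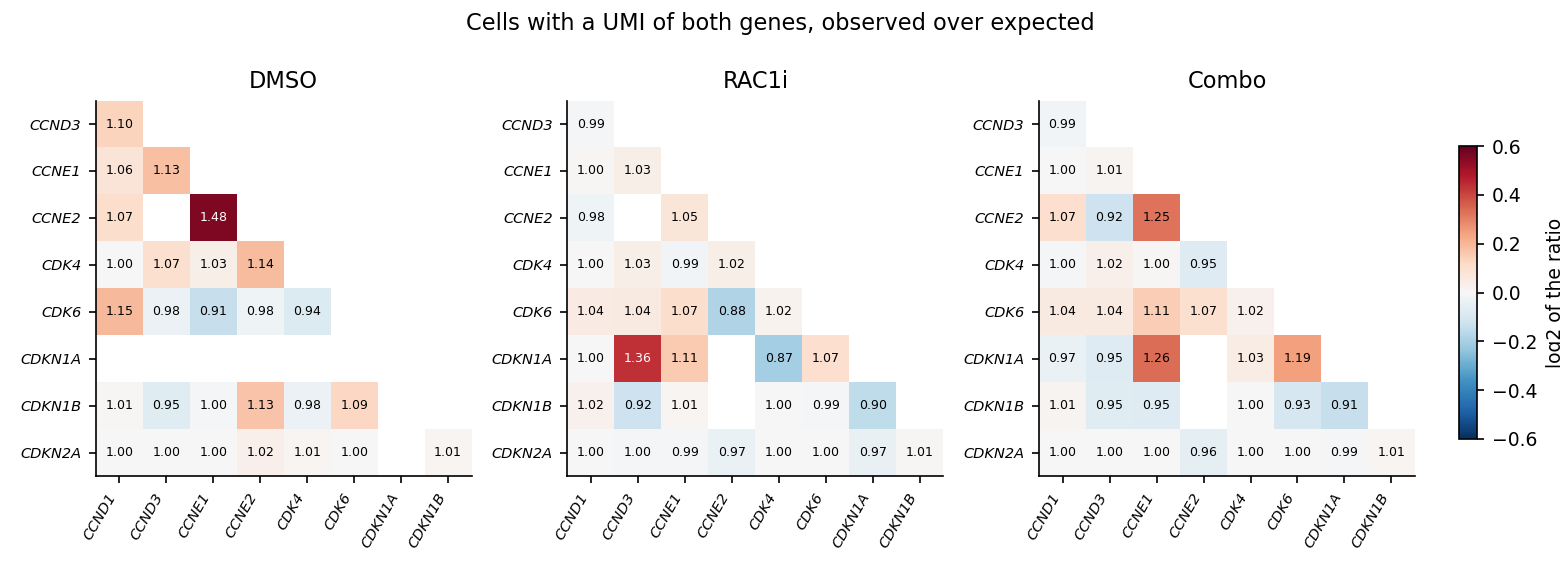
Number of cells with a UMI of both genes over the number expected from their shares, for each pair of 9 of the genes in DMSO, RAC1i and Combo cells thinned to 5000 UMIs, with color as log2 of that ratio and blanks where under 20 cells were expected. Most pairs sit near 1, and CCNE1 with CCNE2 in DMSO is highest at 1.48.

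Cells rich in CCND1 were also compared with cells that had none. In cells with 4 or more CCND1 UMIs of 5000, CDK6 stood at 56.2 CPM against 34.0 in DMSO (1.65-fold, 1.29 to 2.10), 90.6 against 53.1 in RAC1i (1.71-fold, 1.503 to 1.94) and 80.3 against 45.5 in Combo (1.77-fold, 1.54 to 2.03). Genes of ERK pathway output, other than CCND1, summed to 216 against 140 CPM in the DMSO library, 756 against 565 with RAC1i and 624 against 417 with Combo. Single genes carry much of these sums: over all kept cells IER3 gave 425 of 637 CPM in RAC1i and 309 of 488 in Combo, and EGR1 63.5 of 160.4 in DMSO. CDK4 did not follow, at 0.853, 0.992 and 0.933 of its level in cells without CCND1. Median depth before thinning was higher in the CCND1-rich cells of DMSO (31411.5 against 27231 UMIs) and RAC1i (23242.5 against 20989) and lower in those of Combo (25938 against 28716), and the part of depth in these ratios was not tested.

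Cells with a CDKN1A UMI were compared in the same way within the treated libraries. CCNE1 stood at 108 CPM in them against 77.9 in the other RAC1i cells (1.38-fold, 1.15 to 1.65) and at 125 against 87.7 in Combo (1.42-fold, 1.24 to 1.63). CCND1 did not differ beyond counting error (0.947, 0.873 to 1.03, and 0.970, 0.901 to 1.04). CDKN1A-positive cells were slightly shallower than the rest, with medians of 21538 against 23073 UMIs in RAC1i and 26704 against 27556 in Combo.

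The cells were next placed in 4 ranges by their summed UMIs of S phase genes (42 genes, CCNE2 removed) and G2/M genes (54 genes) after thinning. Cells over 30 G2/M UMIs were called high in G2/M, other cells over 11 S UMIs high in S, and those with at most 7 S and 22 G2/M UMIs low in both. These are ranges of a continuous sum, and 18.6 to 21.4% of cells lay within 1 UMI of a high limit. Cells low in both were 28.5% of DMSO, 39.8% of RAC1i and 37.9% of Combo cells, and cells high in S were 15.8%, 8.05% and 8.84%. Cells high in G2/M, which are left out of those high in S, were 38.2%, 17.4% and 18.0%, and cells between the limits 17.5%, 34.7% and 35.2%. Median depth before thinning differed between the ranges. For cells low in both, high in S and high in G2/M it was 26002.5, 29015.5 and 32166 UMIs in DMSO. The same medians were 20019, 24557 and 28255 in RAC1i, and 22749, 31785 and 34690 in Combo. The part of depth in the differences between ranges was not tested.

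CCNE1 was higher in cells high in S in every library, and the gap was widest in DMSO, with 151 CPM in cells high in S against 64.3 in cells low in both (2.35-fold, 2.12 to 2.62). In RAC1i the same values were 100.4 and 74.7 (1.34-fold, 1.19 to 1.51), and in Combo 107 and 83.7 (1.28-fold, 1.13 to 1.44). The level of CCNE1 in low cells was thus higher in the treated libraries and that in high S cells lower than in DMSO. The limits of the ranges were the same in all 3 libraries, while the list sums differed. In cells without a CDKN1A UMI the S list stood at 2073 CPM in DMSO and 1424 in RAC1i. The G2/M list stood at 5785 and 4689 CPM in the same cells. A range may thus hold different parts of the cell cycle in each library, which was not tested. The part of free RNA, which enters the sums that set the ranges, was not tested. CCNE2 showed the same order, with 13.2 against 0.731 CPM in DMSO, the latter from 7 UMIs, 5.67 against 1.91 in RAC1i and 6.15 against 2.58 in Combo. In Combo its level in cells high in G2/M, 5.88 CPM (4.18 to 8.04), could not be told from that in cells high in S (3.76 to 9.50). CCND3 was at 25.9 against 14.2 CPM in DMSO (1.83-fold, 1.43 to 2.33) and 57.2 against 39.6 in Combo (1.44-fold, 1.22 to 1.71). In RAC1i it was at 40.2 against 33.8, a ratio of 1.19 (0.989 to 1.43) that was not beyond counting error.

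CCND1 varied little with these ranges, from 159 to 185 CPM in DMSO, 507 to 540.3 in RAC1i and 387 to 448 in Combo, and its RAC1i over DMSO ratio lay between 2.74 and 3.38 in each of the 4. CDK6 in DMSO was lower in cells high in G2/M than in cells low in both (32.6 against 48.3 CPM, 0.675, 0.590 to 0.773), a gap that was 63.6 against 74.4 in RAC1i and 55.9 against 56.1 in Combo. CDKN1A in Combo was at 17.6 CPM in cells high in G2/M and 6.88 in cells low in both (2.56-fold, 1.94 to 3.39), and in RAC1i at 6.24 and 4.59 (1.36-fold, 0.938 to 1.95). CDKN1B was 1.22-fold (1.07 to 1.39) higher in cells high in G2/M than in low cells of DMSO and 1.40-fold (1.21 to 1.61) in RAC1i, while the ratio of 1.14 in Combo (0.967 to 1.34) was not beyond counting error.

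**Figure D5:**
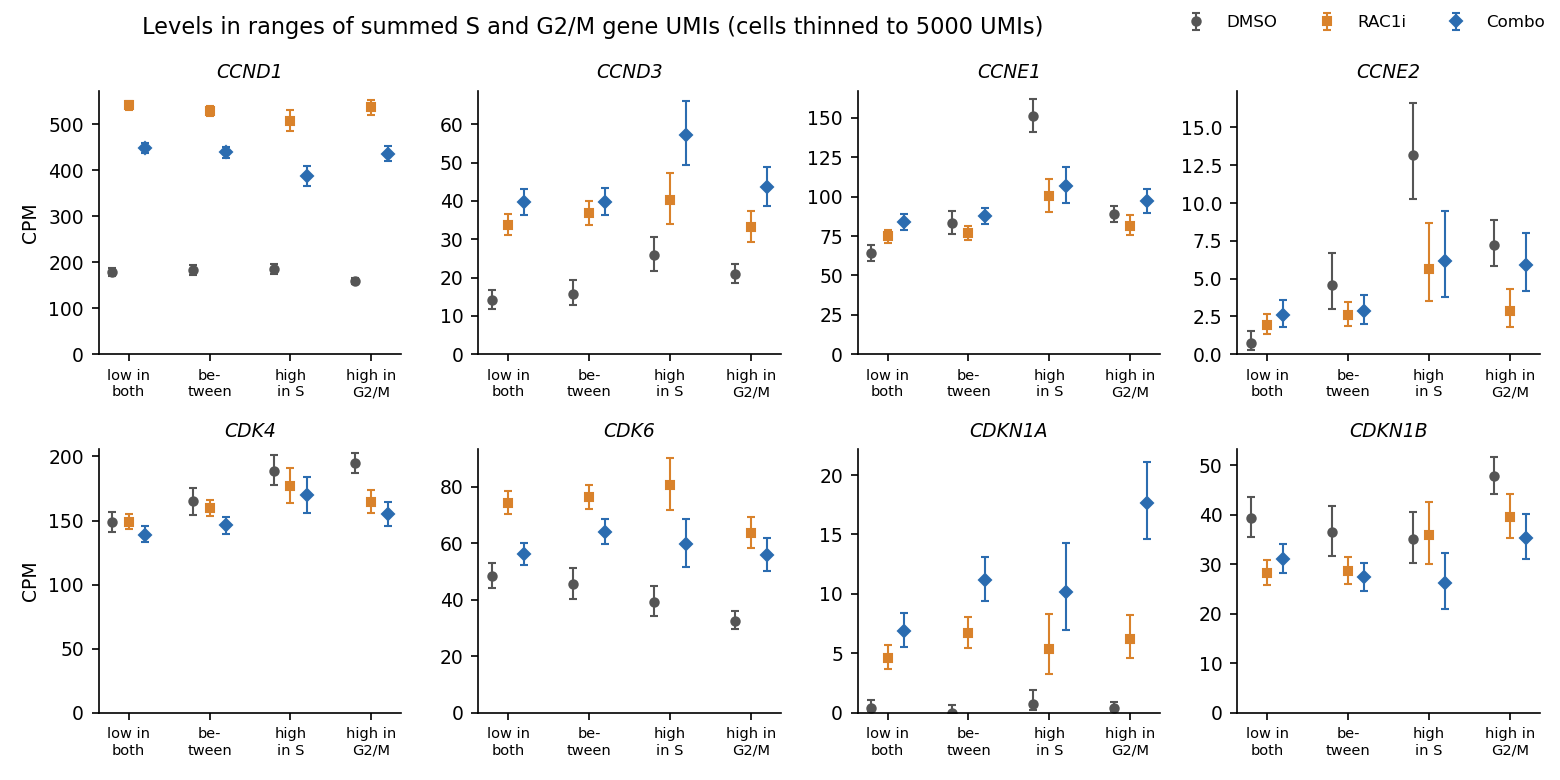
CPM of 8 of the genes in 4 ranges of cells set by summed S and G2/M gene UMIs (low in both, between, high in S, high in G2/M) in DMSO, RAC1i and Combo cells thinned to 5000 UMIs, with exact 95% Poisson intervals. CCNE1 and CCNE2 are higher in cells high in S than in cells low in both, with the widest gap in DMSO, and CCND1 keeps the gap between treated and DMSO cells in every range.

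The genes that varied from cell to cell most like the G1 regulators were sought. For each of the 6 with at least 20 CPM in every library, the likeness to 2131 other genes was taken as the lowest Pearson correlation of the 3 libraries over thinned cells. CDKN2A was most like RPS6 (0.205), TMSB10 (0.193) and RPL24 (0.184), which encode ribosomal proteins and an actin-binding peptide. For CCND1, CCNE1, CDK4, CDK6 and CDKN1B no gene reached 0.1, and the nearest to CCND1 was EPHA2 at 0.0995. These correlations are weak.

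The partners and targets of the 10 genes were counted from lists chosen by function, among the genes of each that reached 10 CPM in 1 of the compared libraries or in both. Of the RB family and E2F list, 1 of 11 genes was over 1.5-fold higher in RAC1i than in DMSO and 5 were lower, with a median log2 ratio of -0.53. E2F1, an activating E2F, went from 52.5 to 14.7 CPM and 17.6 in Combo, and its partner TFDP2 from 162 to 54.4 and 61.0. E2F4, a repressive E2F, went from 33.2 to 69.6 and 72.7. Of 22 G1/S genes under E2F, 1 was higher (CDC6, 25.1 to 39.7 CPM) and 13 were lower, with a median of -0.72, led by CDC45 (25.3 to 5.15) and MCM5 (26.05 to 7.36). The same list had 0 higher and 12 lower in Combo over DMSO, where 21.3% of all genes were higher and 35.4% lower. In both lists more genes were lower than higher, which was also so over all genes (36.9% lower and 22.7% higher in RAC1i over DMSO), and no test of the lists was made.

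Of the other kinases, cyclins and CDK inhibitors, 2 of 18 were higher and 10 lower in RAC1i over DMSO, beside 22.7% and 36.9% of all genes. The phosphatase CDC25A went from 9.58 to 24.1 CPM and CDK7 of the CDK-activating kinase from 22.7 to 55.1, while the third Cip/Kip inhibitor, CDKN1C, went from 35.2 to 9.37 and the cyclin CCNA1 from 26.6 to 7.81. CDK2, the partner of the E cyclins, was at 14.5, 11.96 and 11.9 CPM. Of 12 genes for turnover of these proteins, 2 were higher and 4 lower, a share of lower genes near that of all genes (36.9%). CKS1B, which the SKP2 ligase needs to mark CDKN1B for decay, went from 269.5 to 739 CPM and 742 in Combo, and FBXW7, of the ligase that marks cyclin E, from 20.1 to 34.8 and 33.4. CRYAB, a small heat shock protein, went from 247 to 76.7 and the deubiquitinase USP28 from 15.2 to 5.01.

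The upstream lists were counted likewise. Of 11 genes of ERK pathway output, CCND1 left out, 10 were higher in RAC1i than in DMSO and 1 lower (22.7% and 36.9% of all genes), with a median log2 ratio of 2.10. PHLDA1 went from 0.412 to 30.6 CPM, the phosphatase DUSP4 from 1.27 to 41.3 and the immediate early factor EGR1 the other way, from 63.5 to 19.6. In Combo over RAC1i the ERK list had a median of -0.30 with 1 gene lower, where the median of all genes was 0.01 and 0.484% were lower. CCND1 stood at -0.34, and a link between the list and CCND1 was not tested.

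Of 8 FOXO and quiescence genes, 3 were higher and 3 lower in RAC1i over DMSO, with a median of 0.17, where 22.7% and 36.9% of all genes were, so the lower count is near that of all genes. TXNIP, which binds thioredoxin, went from 46.8 to 547 CPM and 736 in Combo and the repressor BCL6 from 7.77 to 56.6 and 42.2, while the sestrin SESN3 went from 17.6 to 3.50 and 4.73 and the cyclin CCNG2 from 47.7 to 17.0 and 16.2. In Combo over DMSO, where 21.3% of all genes were higher and 35.4% lower, the genes higher and lower were 1 and 6 of 11 for RB and E2F, 2 and 9 of 18 for the other kinases, cyclins and inhibitors, and 2 and 4 of 12 for turnover. They were 7 and 1 of 9 for ERK output and 3 and 2 of 8 for FOXO and quiescence genes. In Combo over RAC1i no gene of the lists was over 1.5-fold higher, and 1, of ERK pathway output, was lower. Of all 7443 genes tested in that comparison, 0.175% were higher and 0.484% lower.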

How the data were processed

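Single-cell RNA was measured in 3 OVCAR3 libraries, DMSO, RAC1i and Combo, 1 library per condition, with the Chromium Next GEM Single Cell 3′ v3.1 kit. Per barcode and gene, the authors deposited UMI counts from Cell Ranger 4.0.0 on GRCh38 per the submitters' processing notes, with no normalisation or later filter. The rest was computed here from those counts with Python 3.11.15 and scipy 1.17.1. Limits on cells were over 1000 genes, no more than 20% mitochondrial UMIs and a ratio of log10 genes to log10 UMIs over 0.8, which left 7531 of 10071, 10215 of 11772 and 8239 of 9757 barcodes. No doublet caller was run here, and the results were recomputed without the 8% of cells with the most UMIs. UMIs were summed over kept cells and scaled to 1000000 (CPM), with exact 95% Poisson intervals, conditional intervals for ratios and Clopper-Pearson intervals for shares of cells, all for counting error only. A gene was counted as higher or lower past 1.5-fold when the higher of the 2 libraries had at least 10 CPM of it, and the floor for a gene at 0 was 3 counts in a library. Shares, pairs and ranges used cells thinned to 5000 UMIs, which left out 806, 1015 and 885 shallower cells. The ratios were tested on simulated data.

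Cells of a culture are not replicates, so no p-value is given. The 10 genes and the lists of related genes were chosen with earlier results of these data known. Of each list, the top 2 rises and top 2 falls in RAC1i over DMSO among genes with at least 10 CPM are named, besides CDK2, EPCAM, COL1A1 and IER3, which were added after their values were seen. A gene like a G1 regulator was named at a lowest correlation of at least 0.1, and EPHA2, below that, was added for comparison. GENCODE 44 held 36366 of the 36601 identifiers. Alternatives were TMM factors (edgeR 4.0.16), size factors (DESeq2 1.42.0, in R 4.3.3), totals without mitochondrial genes, means over cells, other limits on cells, other depths and seeds of thinning, other limits of the ranges and a 2-fold limit. Those on cells of 10000 to 30000 or under 10000 UMIs, cells of 1 to 4% mitochondrial UMIs, cells of high UMIs and cells low in both cell cycle lists were chosen after seeing the data. Sequences are RefSeq's, on GRCh38.p14, and CCND1 and CCND2 had no matching entry. Windows on the chromosome of CCNE2 were left out. The results of 1 of the lists are not reported here.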

Additional observations from a re-analysis of the deposited data

How the results depend on the processing

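No paired analysis was possible because each condition was 1 library and no test was made. Of 335 recomputed log2 ratios of the 10 genes, 308 kept their sign, but only 149 lay within the counting interval of the main ratio. CCND1, CCND3, CDK6 and CDKN1A stayed above DMSO in both treated libraries under every alternative tried, with RAC1i over DMSO log2 ratios of 1.47 to 2.33, 0.36 to 1.2499, 0.62 to 1.62 and 3.15 to 4.83, and CCND3 fell inside 1.5-fold in cells under 10000 UMIs. The Combo over DMSO log2 ratios of the same genes ran from 1.13 to 2.24, 0.37 to 1.48, 0.22 to 1.21 and 3.80 to 5.72. CCNE2 reversed in cells low in both cell cycle lists, at log2 1.39 for RAC1i over DMSO and 1.82 for Combo over DMSO, where DMSO had 7 UMIs of it, and in cells under 10000 UMIs, at 0.11 and 0.66. CDKN1B in RAC1i over DMSO reversed in cells under 10000 UMIs (log2 0.42) and returned inside 1.5-fold, at -0.33 to -0.56, under TMM, DESeq2 size factors, a mean over cells, thinning to 5000 UMIs, cells of 10000 to 30000 UMIs, cells of 1 to 4% mitochondrial UMIs, cells low in both lists and without the 8% of cells with the most UMIs, which took the genes past 1.5-fold from 4 to 3. Under the alternatives that returned CDKN1B inside 1.5-fold, 22.5 to 26.5% of all genes were higher and 32.7 to 38.5% lower. With a 2-fold limit the RAC1i over DMSO count among the 7 genes with at least 10 CPM went from 4 to 2 (CCND1 and CCND3). CDKN1A (13.7-fold) and CCNE2 (0.398) also passed 2-fold but were under 10 CPM and not counted. The all-gene share at that limit is not given. In Combo over DMSO the count went from 2 to 4 in cells of 10000 to 30000 UMIs, with CDK6 and CDKN1A added, where 20.3% of all genes were higher and 39.0% lower. It also went to 4 in cells under 10000 UMIs (CCND1, CCNE2 and CDK6 higher and CDK4 lower), where 36.7% of all genes were higher and 33.2% lower. In Combo over RAC1i the count went from 0 to 1, CDKN1A once past 10 CPM, under TMM, DESeq2 size factors, thinning to 5000 UMIs, cells of 10000 to 30000 UMIs and without the 8% of cells with the most UMIs. Under these, 0.189 to 0.390% of all genes were higher, and CDKN1A was counted as higher in Combo over DMSO too. CDKN1B was counted as lower in Combo over DMSO with totals without mitochondrial genes (log2 -0.64). Another seed of the thinning took the pairs found in over 25% more cells than expected in all 3 libraries from 0 to 1 (CCNE1 and CCNE2). Thinning to 10000 UMIs took the genes over 1.5-fold higher than in low cells in all 3 libraries from 0 to 1 (CCNE2) for high S and for high G2/M cells. No share over all genes is given for these ranges. At 5000 UMIs CCNE2 was not among the 7 genes compared, as its 7 UMIs in low DMSO cells were too few for a ratio. The count thus changed with the entry of CCNE2 into the comparison. Apart from this entry and from what the fewer cells or UMIs of an alternative change by construction, the cause was not tested. CCNE1 and CDKN2A in both comparisons with DMSO, and CDK4 in RAC1i over DMSO, changed sign among alternatives, and CDK4 passed 1.5-fold in cells under 10000 UMIs (log2 -0.70 in RAC1i and -0.95 in Combo). Depth limits CCND2, at 14 UMIs or fewer per library, and CDKN1A in DMSO, at 84 over all kept cells. Of these, 4 were in cells of 10000 to 20000 UMIs and 9 in those of 20000 to 30000.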
